A study of Mus musculus with 53 samples.

Results

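The genes described are 8 members of the fetal programme that the let-7 microRNAs act on: Lin28b, Hmga1, Hmga2, Igf2bp1, Igf2bp2, Igf2bp3, Arid3a and Ccnd2. They were taken by symbol from the expression table of the T1 pre-HSCs, where all 8 were listed among 14833 genes. T1 pre-HSCs are the earlier stage of the cells that mature into haematopoietic stem cells (HSCs), here sorted from the aorta-gonad-mesonephros (AGM) region of E11 mouse embryos. The table holds 12 cells titled KO, whose genotype is given as mH19 delta_DMR/+, and 10 cells titled wildtype, whose genotype is given as mH19 flDMR/+. The controls therefore carry the floxed allele of the H19 differentially methylated region (DMR), and the labels name no Cre driver. No embryo, litter or sort is named for any cell, so each genotype was treated as 1 sample, and spreads are over cells, with no p-value between genotypes. Wildtype cell 19 was left out because Actb, the gene of cytoplasmic actin, is listed at 0 there and reached at least 710 RPKM in each other wildtype cell, which leaves 12 KO and 9 wildtype cells.

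LIN28B is an RNA-binding protein of fetal blood progenitors that blocks the maturation of let-7 precursors. Mature let-7 pairs with messenger RNAs through its seed and lowers their stability and translation, and Hmga2, the Igf2bp genes, Arid3a and Ccnd2 are known targets. The chromatin protein HMGA2 and the IGF2BP proteins are typical of fetal rather than adult HSCs. H19 is an imprinted long non-coding RNA that has been described as binding let-7, and it is also the host of miR-675.

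The let-7 sequences are shown because their shared seed is what defines the target group. RefSeq (build GRCm38.p6) holds 13 let-7 family loci in the mouse, which give 11 distinct mature sequences. In capitals are bases 2 to 8, the seed, counted from the 5′ end. The 10 sequences below have the seed GAGGUAG.
mmu-let-7a-5p: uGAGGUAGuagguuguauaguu
mmu-let-7b-5p: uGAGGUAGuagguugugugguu
mmu-let-7c-5p: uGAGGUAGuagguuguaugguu
mmu-let-7d-5p: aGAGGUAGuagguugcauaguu
mmu-let-7e-5p: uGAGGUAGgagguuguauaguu
mmu-let-7f-5p: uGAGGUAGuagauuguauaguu
mmu-let-7g-5p: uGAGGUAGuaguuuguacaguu
mmu-let-7i-5p: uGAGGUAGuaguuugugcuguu
mmu-let-7k: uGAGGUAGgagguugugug
mmu-miR-98-5p: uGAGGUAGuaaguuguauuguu
The remaining one, mmu-let-7j, has the seed GAGGUAU.
mmu-let-7j: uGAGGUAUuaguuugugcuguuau
The microRNAs encoded within H19 on chromosome 7 have other seeds, shown for comparison.
mmu-miR-675-5p: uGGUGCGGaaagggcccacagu
mmu-miR-675-3p: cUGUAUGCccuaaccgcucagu
Mature microRNAs were not measured in these libraries, so the values below are of messenger and host transcripts.

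Values are RPKM, read density per transcript length and per mapped reads of the cell, and a gene counted as detected at 1 RPKM or more. The number of detected genes was 1517 to 8408 in KO cells (median 3172) and 2067 to 5716 in wildtype cells (median 4176). H19, the check of the labels, did not exceed 186 RPKM in any KO cell and was never below 231 RPKM (up to 1261) in a wildtype cell. In 6 cells few markers of the labelled cell type were detected. KO cells 1, 3, 9 and 11 and wildtype cells 13 and 14 had fewer than 4 of 12 T1 markers (endothelial and early blood genes, such as Cdh5, Kit and Esam). All of them but KO cell 3 had summed mesenchymal markers without Acta2 of 156 to 1010 RPKM. That sum was at most 24.0 RPKM in the other cells apart from wildtype cell 20, at 118 RPKM. The sums rest on few genes. Of 10 mesenchymal markers with Acta2, KO cells 1 and 9 had 3 each, KO cell 11 had 7, and wildtype cells 13 and 14 had 1 and 5. Pdgfra was detected in no cell. KO cells 1 and 9 and wildtype cell 13 had only 1517, 1891 and 2067 detected genes, so their cell type stays uncertain. Of the blood markers, Ptprc was detected in 1 KO and 1 wildtype cell, Itga2b in 3 of each, Runx1 in 4 KO and 6 wildtype cells, and Gfi1 in 0 KO and 7 wildtype cells. Runx1 and Gfi1 differed by −2.70 and −2.57, KO minus wildtype. Their rows stand ahead of the alphabetically sorted part of the table. In the rows ahead of that part, digits of the values recur between cells. Runx1 and Gfi1 were left out of the 12 markers for that reason, and their values are uncertain. Values are therefore also given over the 8 KO and 7 wildtype cells with 4 or more of the T1 markers, a choice made after seeing the data. Some of these cells also held markers of other types. Summed macrophage markers were 1951 RPKM in wildtype cell 18 (1 of 6 markers) and 739 RPKM in KO cell 2 (2 of 6). Summed erythroid markers were 209 RPKM in wildtype cell 20 (1 of 6). Over all 21 cells Krt18 was detected in 7 cells of each genotype, Krt8 in 2 KO cells, and C1qb in no cell.

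The comparison was limited to genes at 1 RPKM or more in 50% or more of the KO or of the wildtype cells. Of the 8 members 6 passed this filter and are among the 3867 genes compared. Lin28b and Arid3a did not. The difference used is that of mean log2(RPKM + 1), KO minus wildtype, and 1 or more in size counted as large, by size and not by a test. Hmga1 and Ccnd2 lay lower in KO cells by 1 or more, and no member lay higher by 1 or more. Among all compared genes 28.0% lay lower by that size and 11.4% higher, and both genes are among the 6 members that passed the filter. A share of 2 in 6 members is near the background. The median difference was −0.59 for the 6 compared members, −0.20 for all 8, and −0.36 for all compared genes (quartiles −1.11 and 0.35). For every member, KO and wildtype cells overlapped. Across all compared genes 0.0517% did not overlap, which is 2 genes. With each cell shifted to an equal median, the median of all compared genes moved to 0.79, and 0 members lay lower and 4 higher by 1 or more. That setting raises the difference of every gene by the same amount. The 4 include Lin28b and Arid3a, which did not pass the filter, and the share of all compared genes beyond 1 is not given. The count is therefore not read as a result about the members.

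**Figure D1:**
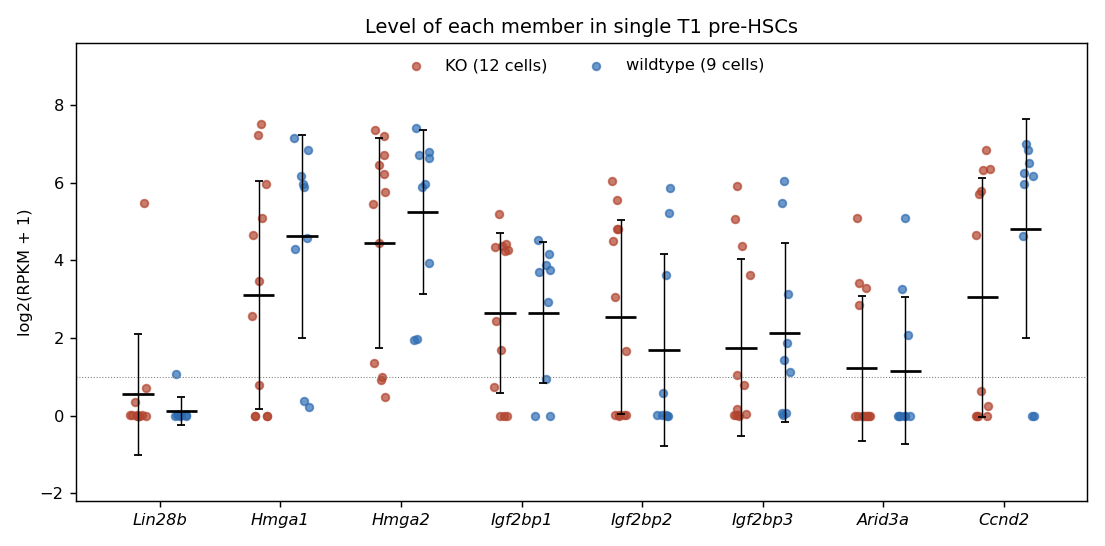
Each point is 1 cell, with log2(RPKM + 1) of the 8 members on the vertical axis, KO in red and wildtype in blue. Black bars are the mean and thin bars the SD over cells, and the dotted line marks 1 RPKM. The genotypes overlap for every member, and Lin28b is at or near 0 in all but a few cells.

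Lin28b (chromosome 10, 45376617 to 45486314, build GRCm38.p6 as for all positions) is the regulator at the head of the axis. It was detected in 1 of 12 KO cells (8.33%, exact Clopper-Pearson 95% interval 0.211 to 38.5%) and in 1 of 9 wildtype cells (11.1%, 0.281 to 48.2%). These intervals cover counting error only. They were KO cell 7 with 43.4 RPKM, and wildtype cell 20 with only 1.10 RPKM. Of the other 19 cells, 7 were listed at 0 and 12 lay above 0 but below 1 RPKM, the highest of them KO cell 4 at 0.627 RPKM. On the log2 scale the KO mean was 0.54 ± 1.57 (SD over cells) and the wildtype mean 0.12 ± 0.36. The difference of 0.42 rested on a single cell, since without KO cell 7 it was −0.03. Lin28b lay above only 34.5% of the listed genes in mean level, the lowest rank of the 8.

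KO cell 7, the cell with the highest Lin28b, was not richer in the other members. Hmga2 was at 43.2 RPKM and Igf2bp1 at 18.1 RPKM there. Hmga1 and Arid3a were listed at 0, and Igf2bp2, Igf2bp3 and Ccnd2 were below 1 RPKM. It had 3 detected members, the median number for KO cells. Lin28a, the paralogue of Lin28b, was not analysed here.

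The let-7 genes could be followed only through the transcripts that surround them. Of the 13 loci, 6 lie inside a RefSeq gene, and 4 of these lie inside a gene of the T1 table. Wdr82, a subunit of histone methyltransferase complexes whose gene holds let-7g, was found in 4 KO cells of 12 and 2 wildtype cells of 9. Huwe1, a ubiquitin ligase whose gene holds let-7f-2 and miR-98, had the same counts, with a highest value of 499 RPKM in KO cell 10. Spaca6, whose gene holds let-7e, was found in 3 cells of each genotype. Mirlet7i was listed at 0 in all 21 cells. None of the surrounding genes reached the level needed for comparison.

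Mir99ahg, the long non-coding host transcript of the miR-99a, let-7c and miR-125b cluster, was detected in 3 of 12 KO cells and 3 of 9 wildtype cells. Its values were concentrated in a pair of cells: KO cell 11 held 340 RPKM and wildtype cell 13 held 260 RPKM. All other cells were at 3.37 RPKM or below. Both cells are among those with fewer than 4 T1 markers and with a raised mesenchymal sum without Acta2, which in wildtype cell 13 rests on 1 marker. Whether the Mir99ahg level is tied to the cell type of these cells was not tested.

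The Hmga members encode architectural chromatin proteins that bind AT-rich DNA. Hmga2 (chromosome 10, 120361268 to 120476469) was the member found in most cells, 9 of 12 KO (75%, 42.8 to 94.5%) and 9 of 9 wildtype cells (100%, 66.4 to 100%). Its lowest, median and highest values were 0.396, 48.2 and 165 RPKM in KO and 2.84, 61.8 and 171 RPKM in wildtype cells. KO cells 1, 8 and 9 lay below 1 RPKM, and at a threshold of 0.1 RPKM all 12 KO cells held Hmga2. The mean log2 level was 4.45 ± 2.71 (SD) in KO cells and 5.26 ± 2.11 in wildtype, which differ by −0.80. That ranged from −1.22 without wildtype cell 21 to −0.44 without KO cell 8. Over the cells with 4 or more T1 markers the difference was 0.13. With cells restricted to those below 1 RPKM of Xist, a value of −1.60 was found. By RPKM, which is per length, Hmga2 had the highest mean log level of the 8 genes, above 93.3% of the listed genes.

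Hmga1 (chromosome 17, 27556574 to 27563672) was detected in 7 of 12 KO (58.3%, 27.7 to 84.8%) and 7 of 9 wildtype cells (77.8%, 40.0 to 97.2%). Its lowest, median and highest values were 0, 7.50 and 184 RPKM in KO and 0.170, 59.0 and 143 RPKM in wildtype cells. The KO values were split, with 4 cells at 0 and the highest value of the whole set in KO cell 12, a cell with only 1796 detected genes. KO cells averaged 3.11 ± 2.95 and wildtype cells 4.62 ± 2.62 on the log2 scale, a difference of −1.51, which is smaller than the SD over cells of either genotype. It was −0.89 over the cells with 4 or more T1 markers and −2.68 without KO cells 2, 4, 5 and 6, the 4 KO cells with the most detected genes. In the latter setting the median of all compared genes was −1.27. The direction was the same under all 32 settings computed, but most of these only leave out 1 of the same cells. The difference ran from −2.89 by the median over cells to −0.17 over cells with Xist under 1 RPKM, where little of it was left.

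How reads with several positions were counted is not given, so the Hmga1 level is uncertain. Havcr2, the gene of the surface receptor TIM-3, followed Hmga1 more closely than any other gene searched, with a Spearman rho of 0.96 over 21 cells. It was detected in 4 KO and 6 wildtype cells, at 26.5 RPKM in KO cell 2 and at most 5.48 RPKM elsewhere.

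**Figure D2:**
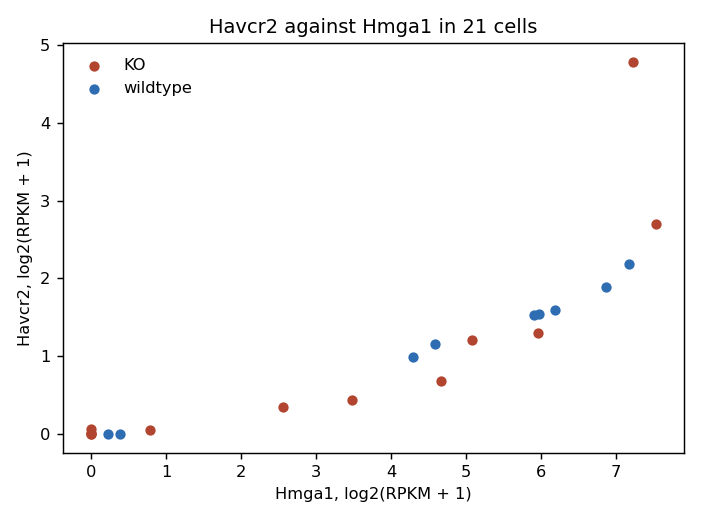
Each point is 1 of 21 cells, with log2(RPKM + 1) of Hmga1 on the horizontal axis and of Havcr2 on the vertical axis; KO is red and wildtype is blue. Havcr2 lies higher where Hmga1 does, and KO cell 2, at 26.5 RPKM of Havcr2, stands above the other cells.

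The 3 Igf2bp members encode RNA-binding proteins that stabilise and control the translation of messenger RNAs, Igf2 among them. Igf2bp1 (chromosome 11, 95957163 to 96005944) was detected in 8 of 12 KO (66.7%, 34.9 to 90.1%) and 6 of 9 wildtype cells (66.7%, 29.9 to 92.5%). Its lowest, median and highest values were 0, 11.3 and 36.0 RPKM in KO and 0, 12.1 and 21.9 RPKM in wildtype cells. The mean levels were 2.65 ± 2.05 and 2.66 ± 1.82, a difference of −0.01. No member lay closer between genotypes.

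Igf2bp2 (chromosome 16, 22059009 to 22163299) was detected in 7 of 12 KO (58.3%, 27.7 to 84.8%) and 3 of 9 wildtype cells (33.3%, 7.49 to 70.1%). Its lowest, median and highest values were 0, 4.77 and 64.7 RPKM in KO and 0, 0.00166 and 57.0 RPKM in wildtype cells. The wildtype cells with the gene were 14, 20 and 22, at 11.3, 57.0 and 36.2 RPKM. KO cells averaged 2.54 ± 2.50 and wildtype cells 1.70 ± 2.47, a difference of 0.84, the highest of the 8 members. It ranged from 0.52 without KO cell 10 to 1.36 without wildtype cell 20, so 1 cell could carry it past the size of 1. It was 1.24 over the cells with 4 or more T1 markers, where 22.2% of 5178 compared genes lay higher by 1 or more and 20.4% lower. Without KO cells 2, 4, 5 and 6 the difference was −0.04, while the median of all compared genes was −1.27, against −0.36 over all cells.

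Igf2bp3 (chromosome 6, 49085218 to 49215469) was detected in 5 of 12 KO (41.7%, 15.2 to 72.3%) and 6 of 9 wildtype cells (66.7%, 29.9 to 92.5%). Its lowest, median and highest values were 0, 0.416 and 59.4 RPKM in KO and 0.00133, 1.70 and 65.4 RPKM in wildtype cells. The highest values, in KO cell 8 and wildtype cell 15, came from cells in which Igf2bp2 was below 1 RPKM. KO cells averaged 1.75 ± 2.29 and wildtype cells 2.14 ± 2.30, a difference of −0.38. It was −0.76 without KO cell 8 and 0.11 without wildtype cell 15, the cells with the highest values.

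The 3 paralogues were combined differently from cell to cell. All 3 were detected in 6 of 21 cells, namely 4 of 12 KO cells (2, 4, 5 and 11) and 2 of 9 wildtype cells (14 and 22). Exactly 2 were detected in 5 cells, 1 in 7 cells and none in 3 cells, which were KO cells 1 and 9 and wildtype cell 13. Those 3 cells had fewer than 4 T1 markers, but so did KO cell 11 and wildtype cell 14, which had all 3 paralogues, and KO cell 3, which had 2. Summed over the 3 genes, KO cells had 0.00789 to 115 RPKM (median 41.7), and wildtype cells had 0.00297 to 102 RPKM (median 16.9).

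Arid3a (chromosome 10, 79927043 to 79955018), a DNA-binding protein with an AT-rich interaction domain, was detected in 4 of 12 KO (33.3%, 9.92 to 65.1%) and 3 of 9 wildtype cells (33.3%, 7.49 to 70.1%). It was listed at 0 in all 14 other cells, with no value between 0 and 1 RPKM, so it appeared as present or not. KO cell 2 held the highest KO value of 33.0 RPKM, and wildtype cell 16 held 33.5 RPKM. KO cells averaged 1.22 ± 1.87 and wildtype cells 1.16 ± 1.90, a difference of 0.06. Its paralogue Arid3b was found in 5 cells, 2 of them KO, and Arid3c was listed at 0 in all 21 cells.

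Ccnd2 (chromosome 6, 127125162 to 127152188) encodes cyclin D2, which drives entry into the cell cycle with CDK4 and CDK6. It was detected in 6 of 12 KO (50%, 21.1 to 78.9%) and 7 of 9 wildtype cells (77.8%, 40.0 to 97.2%). Its lowest, median and highest values were 0, 12.5 and 114 RPKM in KO and 0, 72.1 and 127 RPKM in wildtype cells. Where detected, it was never below 23.6 RPKM, so cells were either high or near 0. KO cells averaged 3.05 ± 3.08 and wildtype cells 4.82 ± 2.82. The difference of −1.77 was the largest in size of the 8 members and smaller than the SD over cells of either genotype. It was −1.71 over the cells with 4 or more T1 markers.

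The direction for Ccnd2 turned with Xist, the RNA expressed from the inactive X chromosome of female cells. Xist stood at 1 RPKM or more in 7 KO cells and 2 wildtype cells, so the genotypes differ in this respect. Among KO cells below 1 RPKM of Xist, all 5 had Ccnd2, at 24.4 RPKM or more (median 79.8). Among KO cells with Xist, 1 of 7 had it. Of the wildtype cells, 6 of 7 below 1 RPKM of Xist and 1 of 2 with it had Ccnd2. Over the cells below 1 RPKM of Xist the difference was 0.72, KO minus wildtype. The median number of detected genes was 5994 in KO cells below 1 RPKM of Xist and 3162 in KO cells with it, and the part of either in the Ccnd2 level was not tested.

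**Figure D3:**
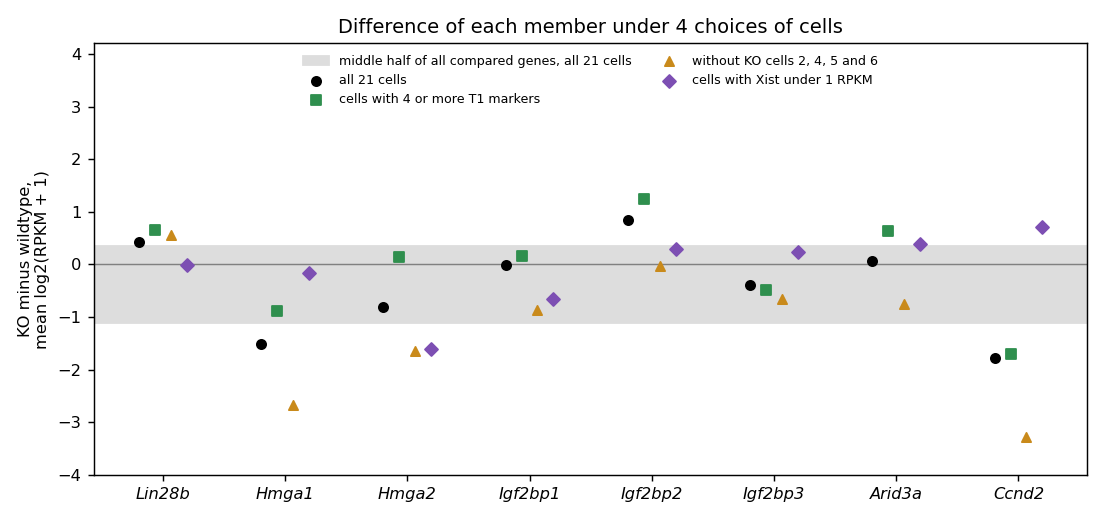
The vertical axis is the KO minus wildtype difference of mean log2(RPKM + 1) for each member, with 1 marker for each of 4 choices of cells, and the grey band spans the quartiles of all compared genes (−1.11 to 0.35). Hmga1 lies below 0 under each of the 4 choices, while Ccnd2 lies above 0 over cells with Xist under 1 RPKM.

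Cyclin D family genes other than Ccnd2 were found in fewer cells. Ccnd1 was detected in 1 KO cell and 2 wildtype cells, and Ccnd3 in 5 KO and 4 wildtype cells. Cdk4, the catalytic partner, was found in every cell but KO cell 1 and differed by 0.43, KO minus wildtype. Cdk6 was detected in 2 KO cells and no wildtype cell.

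The number of detected members varied with how many genes a cell had. It ran from 0 to 7 in KO cells (median 3) and from 3 to 7 in wildtype cells (median 5). KO cells 2, 4 and 5 and wildtype cell 22 each had 7 members, while KO cell 1 had 0 and KO cell 9 had 1. Across 21 cells the count of members and the count of detected genes had a Spearman rho of 0.88 and a Pearson r of 0.83. Among single members, Igf2bp1 followed the number of detected genes most closely (rho 0.67) and Lin28b least (0.26). The median over all compared genes was 0.40. Cells with fewer than 4 T1 markers had a median of 3 members (0 to 5) and the other 15 cells a median of 5 (3 to 7).

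**Figure D4:**
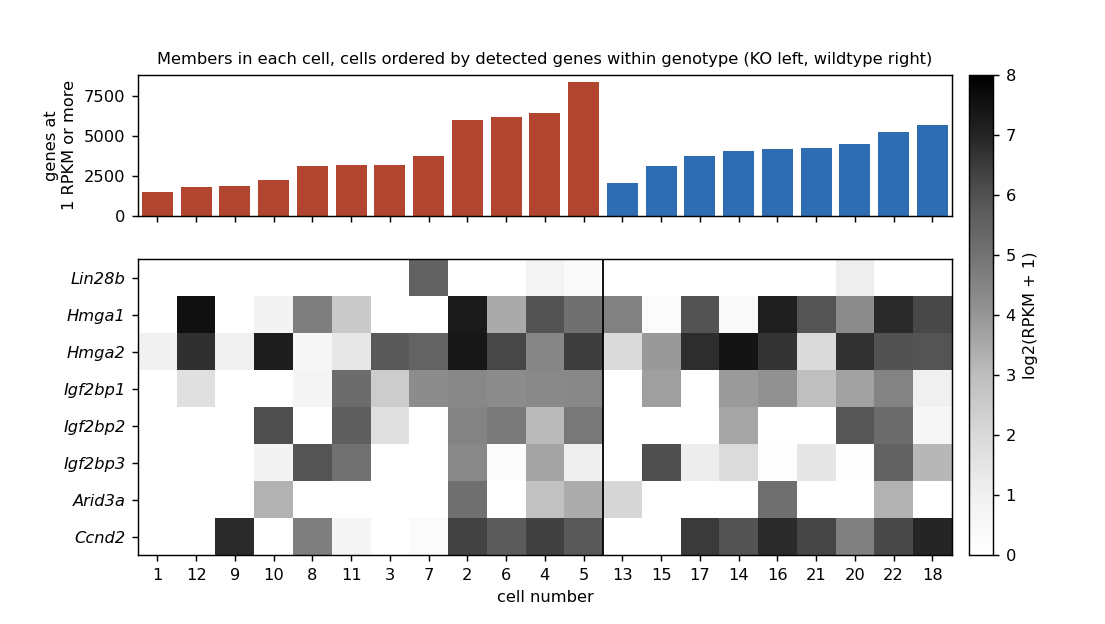
The upper bars give the number of genes at 1 RPKM or more in each cell and the lower panel the log2(RPKM + 1) of each member, with cells ordered by that number within KO (red, left) and wildtype (blue, right). KO cells 2, 4 and 5 and wildtype cell 22 have 7 members each, and Lin28b is dark in KO cell 7 alone.

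Co-expression of the members was weak. Spearman rho of the 28 member pairs over 21 cells ran from −0.22 to 0.50 with a median of 0.23, and 21 pairs (75%) were above 0. For comparison, over all pairs of compared genes the median was 0.15 and 72.5% were above 0, and all these values share the libraries and the number of detected genes per cell. The highest was between Igf2bp1 and Igf2bp2 (0.50; both detected in 9 cells), followed by Hmga1 and Ccnd2 (0.48; 11 cells) and Hmga1 and Arid3a (0.47; 6 cells). The lowest was between Lin28b and Ccnd2 (−0.22; 1 cell). After centring each genotype on its mean the range was −0.14 to 0.53.

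Some relations within the group depended on which cells were used. Leaving out the cells with fewer than 2000 detected genes raised Hmga1 with Ccnd2 to a rho of 0.82 over 18 cells, and over the 15 cells with 4 or more T1 markers it was 0.56. In that latter set Lin28b with Hmga1 was at −0.58, against −0.17 over all cells. Lin28b was detected in only 1 KO and 1 wildtype cell of the set, so both values rank mostly Lin28b levels below 1 RPKM. Every cell with Igf2bp1, Igf2bp2 or Arid3a also held Hmga2, which was detected in 18 of 21 cells. Lin28b and Arid3a were never detected in the same cell, nor were Lin28b and Igf2bp3. Of 21 cells, Lin28b was detected in 2, Arid3a in 7 and Igf2bp3 in 11, so 2 cells are too few to show that these genes exclude each other.

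**Figure D5:**
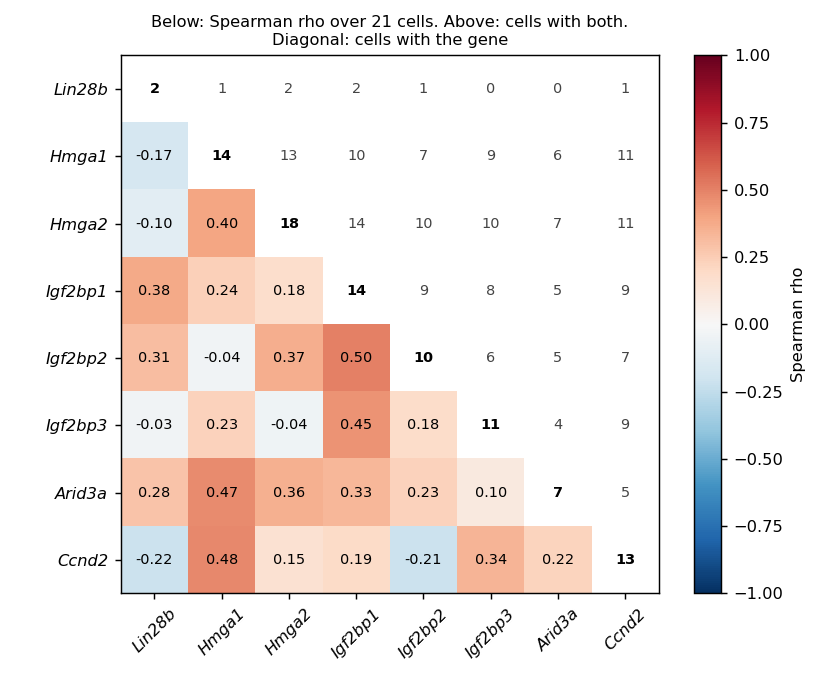
Squares below the diagonal give Spearman rho over 21 cells for each pair of members, numbers above it count the cells with both genes at 1 RPKM or more, and the diagonal counts the cells with each gene. The highest rho is 0.50 for Igf2bp1 with Igf2bp2, and Hmga2 is found in 18 cells.

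Igf2, the growth factor gene whose messenger RNA gives the Igf2bp family its name, was detected in all 21 cells. It lay at 15.0, 373 and 1164 RPKM in KO and 1.49, 335 and 516 RPKM in wildtype cells (lowest, median and highest). Its difference was 0.64 over all cells and −0.31 over the cells with 4 or more T1 markers. The lowest wildtype value is that of cell 13 alone, and the next lowest wildtype cell was at 169 RPKM. Cell 13 is not among the cells with 4 or more T1 markers, and the difference without cell 13 alone was not computed. Spearman rho of Igf2 was 0.64 with Igf2bp2, 0.61 with Igf2bp1 and 0.36 with Igf2bp3. Over the cells with 4 or more T1 markers these were 0.57, 0.49 and 0.15. With the other 5 members it was −0.10 to 0.26 over all 21 cells.

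The genes most like each member were taken among 3250 genes detected in at least 10 cells, by Spearman rho over 21 cells, as a description. For Hmga1 they were Havcr2 (0.96) and, lower, the ribosomal protein gene Rps16 (0.80). Hmga2 was most like Shc1 (0.84), Lbhd1 (0.73) and the elongation factor gene Eef1a1 (0.71). For Igf2bp1 they were Snrpb (0.82), Gabarapl2 (0.81) and 0610010K14Rik (0.80), and Snrpb itself followed the number of detected genes at 0.66. Igf2bp2 was most like the transcription factor gene Ets1 (0.80), Hnrnpa0 (0.75) and Gm21989 (0.74). Igf2bp3 was most like Usp33 (0.79), Cnih1 (0.77) and Dbnl (0.76), and Ccnd2 was most like the chromatin remodelling gene Smarcc1 (0.87), Fam32a (0.86) and Acot13 (0.80).

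Genes around the axis were read as lists, each against the background of 28.0% lower and 11.4% higher and the median of −0.36. Of the 11 compared let-7 processing and silencing genes, 3 lay lower by 1 or more, none higher, and the median was −0.48. Prkra, a cofactor of Dicer, differed by −2.15 and was detected in 5 KO cells against 7 wildtype cells. Tnrc6a, a scaffold of the silencing complex, differed by −1.35, and Zcchc11, an enzyme that adds uridines to let-7 precursors bound by LIN28, by −1.10. The exonuclease gene Xrn2 differed by 0.998, just under the size used.

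Of 8 compared let-7 targets outside the members, none lay lower by 1 or more and 1 higher, with a median of −0.16. That gene was Nap1l1, a histone chaperone, with a difference of 1.77 and values in all 12 KO cells. Eif4g2, Nras and Map4k4 differed by −0.82, −0.72 and −0.60. Of 11 compared IGF2BP partners and target messenger RNAs, 1 lay lower and 1 higher, with a median of −0.04. They were Elavl1, an RNA-stabilising protein gene (−1.25), and the helicase gene Dhx9 (1.22), while Pabpc1 and Fbl differed by −0.95 and −0.92.

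Among 8 compared genes of RNA-binding paralogues and stem cell regulators, 4 lay lower by 1 or more and none higher, with a median of −0.84. They include the genes of the mRNA-decay factors Zfp36l1 (−1.997) and Zfp36l2 (−1.55) and again Elavl1. Of 11 compared ARID and high mobility group (HMG) chromatin genes, 4 lay lower and 1 higher, with a median of −0.44. Hmgb3 (−2.19), Hmgn5 (−1.89) and Hmgb2 (−1.27) lay lower, and Arid2 (1.96) higher. Over the cells with 4 or more T1 markers, where the median of all compared genes was 0.06, the medians of these lists were −0.52 and −0.32. Those of the let-7 processing genes, the other let-7 targets, the IGF2BP partners and the fetal and adult HSC genes were −0.18, 0.06, 0.34 and 0.06.

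Of 7 compared genes of the fetal and adult HSC programmes, 1 lay lower and 2 higher, with a median of −0.54. Plagl1, an imprinted zinc finger gene, differed by 2.56, Hoxa9 by 1.30, the immediate early gene Egr1 by −2.11 and Procr by −0.96. The rows of Plagl1 and Egr1 precede the alphabetically sorted rows, in which all members stand. Digits recur between cells in such preceding rows, so the differences of Plagl1 and Egr1 are uncertain. Of 3 compared cyclin D and CDK partners, Cdkn1c, an imprinted inhibitor of CDKs, lay lower (−1.95), and Cdkn1a (0.79) and Cdk4 (0.43) lay higher by less than 1. Over the cells with 4 or more T1 markers Cdkn1a differed by 1.63 and Cdk4 by 1.41, and the list median was 1.41 in place of 0.43. No globin gene reached the level needed for comparison.

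The table of adult HSCs, a separate set of cells from bone marrow, holds none of the 8 members. A gene that is not listed has no value there, so the level of the members in adult HSCs is unknown here. Of the genes around let-7 the adult table lists Mir99ahg. It reached 1 FPKM in 13 of 25 cells (52%, 31.3 to 72.2%) with a median of 1.05 and a highest value of 7.27. The next counts use the same level of 1 FPKM. H19 reached it in 8 of 25 cells, and both did in 2 cells. The interval given for Mir99ahg in that table, chromosome 16 from 77236316 to 77691403 (mm10), contains let-7c-1, miR-99a and miR-125b-2. The RefSeq span of the same gene (77329328 to 77558428) ends 41229 bases before the let-7c-1 hairpin.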

How the data were processed

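Single cells were sorted, and RNA was amplified and sequenced per the labels' protocols. The deposited T1 table holds RPKM for 1 column per cell, made by the authors with Cufflinks 2.1.0 on mm10, per the submitters' processing notes. Which aligner and gene models were used, and how reads with several positions were handled, is not given in the sources used here. Depth is unknown, since whole reads cannot be recovered, and an exact 0 can be a failed estimate. The deposited adult table does not name its unit and was read as FPKM because the submitters' processing notes name Cufflinks; 2 columns with the same cell name were not used.

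A column was tied to its cell by number, and the cell to its genotype by the labels. Per gene, log2(RPKM + 1) was averaged over cells (pseudocount 1, which understates the change of low genes), and compared genes had 1 RPKM or more in 50% or more of the KO or of the wildtype cells. Shares carry exact Clopper-Pearson 95% intervals. No test between genotypes was run. Named genes are the 8 members, H19 and Igf2, let-7 host and cyclin D genes, up to 4 compared genes per list with the largest differences, and the 3 genes most like each member, of which some genes are not reported here. The members and lists were chosen with earlier results of these data known. Positions and microRNA sequences are from RefSeq, GRCm38.p6. Only the calculation of the difference was tested on simulated data, at levels set well above those of these cells. The correlations and detection counts were not tested in that way. The search of 3′ untranslated regions for let-7 sites was not run. Software was Python 3.11.15, pandas 2.3.3, numpy 2.4.6, scipy 1.17.1 and matplotlib 3.10.9. Alternatives covered the pseudocount, scaling, mean or median, filter, detection threshold and the cells used.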

Additional observations from a re-analysis of the deposited data

Results flagged for a closer look

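A set of 10 genes, the 8 members with H19 and Igf2, was examined for a wildtype cell far from the other 8, and 2 were found; chance alone gives about 1 in 20 groups. Lin28b in wildtype cell 20 was at 1.07 on the log2(RPKM + 1) scale (1.10 RPKM), and the gap to the next cell was 0.98 of the whole range, above the critical value of 0.493. The other 8 wildtype cells lay at 0.0126 RPKM or below, so a single detected cell gives such a gap, and neither the critical value nor the chance rate can be relied on for this gene. Igf2 in wildtype cell 13 was at 1.32 (1.49 RPKM), with a gap of 0.79 of the range to the next lowest cell at 169 RPKM. Wildtype cell 13 is also a cell with fewer than 4 T1 markers and with 260 RPKM of Mir99ahg.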

How the results depend on the processing

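Of the 8 members, 2 lay lower and 0 higher by 1 or more in size. The count of higher members was 1 with a pseudocount of 0.1, by the median over cells, by the ratio of mean RPKM, without cells under 2000 detected genes and over cells with 4 or more T1 markers (chosen after seeing the data). The count of lower members was 0 with a pseudocount of 10 and by the ratio of means, 1 over cells with Xist under 1 RPKM (Hmga2, at −1.60, in place of Hmga1 and Ccnd2), 1 over cells with 4 or more T1 markers (Ccnd2), and 3 with a pseudocount of 0.1 and without KO cells 2, 4, 5 and 6 (Hmga2 joining). Shifting each cell to an equal median raised the difference of every gene by the same amount and moved the median of all compared genes from −0.36 to 0.79. With that shift 0 members were lower and 4 higher, a count set largely by the shift itself. Leaving out each cell in turn gave 0 to 1 higher members (1 without KO cell 1, 7, 8, 9 or 12 or wildtype cell 14, 20 or 22), 2 to 3 lower members (3 without KO cell 2, 10 or 12 or wildtype cell 13 or 21) and a median difference of −0.50 to 0.13. Ccnd2 reversed to 0.72 over cells with Xist under 1 RPKM, and Lin28b reached 2.06 by the ratio of means. For Lin28b, KO cell 7 at 43.4 RPKM was the only KO cell at 1 RPKM or more. The cause of the other changes named here was not tested. No paired analysis was possible because KO cells 1 to 12 and wildtype cells 13 to 22 share no number. The search for let-7 sites was not run, having no 3′ untranslated sequence to use. With 9 to 12 cells and unknown depth, shares have wide intervals, and a gene listed at 0 may be present below detection.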

Other observations

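Havcr2 had a level that was a small share of Hmga1 of similar size in most cells. This was seen while listing the genes most like Hmga1, so it is a description of the same cells. In the 14 cells with Hmga1 detected, Havcr2 was 2.34 to 17.8% of the Hmga1 RPKM (median 3.15%), and 13 of 14 cells lay between 2 and 6%. KO cell 2 was the exception, with 26.5 RPKM of Havcr2. In the 7 cells with Hmga1 below 1 RPKM, Havcr2 did not exceed 0.0438 RPKM. Havcr2 lies on chromosome 11 (46454931 to 46481255) and Hmga1 on chromosome 17. Whether reads of one gene were counted to another was not tested, and the level of Havcr2 in these cells is reported as uncertain.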
